A study of Drosophila melanogaster with 3 samples.

Results

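The Hox genes *lab*, *Dfd*, *Scr*, *Antp*, *Ubx*, *abd-A* and *Abd-B* and the genes of their cofactors, *hth* and *exd*, were examined in larval hearts lacking Hand. These 9 genes were taken by CG number. Of them, 4 were found among the 7498 genes of the deposited values: *hth* (CG17117), *Antp* (CG1028), *abd-A* (CG10325) and *Abd-B* (CG11648). The other 5, *lab* (CG1264), *Dfd* (CG2189), *Scr* (CG1030), *Ubx* (CG10388) and *exd* (CG8933), had no row and are reported as unmeasured. No further number that the RefSeq annotation assigns to any of the 9 genes was found either. For comparison, 48.1% of the 13962 protein-coding genes of that annotation had a row.

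The arrays set homozygous hand[173] animals, which carry a null allele of *hand*, against w[1118] animals as wild type. Larvae of both lines grew at 22 °C and were dissected as wandering larvae of instar 3, after 15 s in a water bath of 60 °C. About 100 heart tubes per genotype were pooled, so that each genotype is represented by 1 RNA pool, which was amplified and hybridized to 3 spotted arrays. Alexa Fluor 647 marked the hand[173] pool and Alexa Fluor 555 the w[1118] pool throughout. Dyes were not swapped, so that a dye effect on a gene cannot be told apart from an effect of genotype, even where the arrays agree. The tubes kept associated tissue. The sample labels name pericardial cells and longitudinal ventral muscles, whereas the paper names alary muscles beside the pericardial cells. The labelling protocol in the sample labels speaks of RNA from fat bodies, while the source and tissue labels give hearts. Whether the lines share their genetic background apart from *hand* is not given in the sources used here.

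Hox genes encode homeodomain transcription factors that give the segments of the body axis their identity. In the fly they lie in the Antennapedia and bithorax complexes. Along the dorsal vessel, *Antp*, *Ubx*, *abd-A* and *Abd-B* are known to be expressed in successive segments. *abd-A* specifies the posterior, contractile heart with its ostia, in contrast to the aorta. Exd and Hth are homeodomain proteins of the TALE class that bind DNA together with Hox proteins, and Hth is required for Exd to enter the nucleus. A pool of whole tubes does not resolve segments. Fewer cells that express a gene and less RNA per cell cannot be told apart in it. The values are log2 ratios of hand[173] over w[1118] and hold no level of a gene in either genotype. The tissue could therefore not be checked by the presence of marker transcripts.

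The arrays differed in their overall level. Their median log2 ratios were 0.97 for array 1 (1372 values), 0.38 for array 2 (2650 values) and -0.56 for array 3 (6459 values). Across genes, which are not independent replicates, Pearson's r was 0.77 between arrays 2 and 3 and at most 0.14 for the pairs with array 1. The paper calls the arrays technical replicates, whereas the sample titles carry the unexplained abbreviation bR. They were treated as repeated measurements of 1 pair of pools, which gives no biological replicate, and each SD and n refers to arrays. Their number limits the precision. *hand* itself (CG18144) was measured on array 3 only, with a log2 ratio of -0.16, or 0.40 relative to the median of that array. Its sign thus depended on the scaling. The value gives no check of a null allele whose lesion is not described in the sources used here.

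*hth* was the only gene of the 4 with a value on every array, which held for 466 of the 7498 genes. Its log2 ratios were 0.66 on array 1, 0.67 on array 2 and -0.29 on array 3. Arrays 1 and 2 thus placed the *hth* transcript higher in hand[173] hearts, at 1.58 and 1.59 times the w[1118] level, and array 3 placed it lower, at 0.819 times that level. The mean log2 ratio was 0.35 ± 0.55 (SD, n = 3 arrays), so that its direction cannot be told from the spread between arrays. The paper's rule calls a gene upregulated or downregulated when at least 2 of the 3 arrays pass a fixed fold threshold. On the log2 scale the upper threshold lies at 0.41 and the lower threshold, a ratio of 0.67, at -0.58. By this rule *hth* was scored as upregulated. The same was true of 244 genes, or 9.69% of the 2517 genes with values on at least 2 arrays, and of 32.0% of the 466 genes with 3 values. Of the 2517 genes, 20.5% were scored as downregulated. The paper states the same rule but reports fewer genes in both directions, and the reason was not tested. The call of *hth* comes from the deposited values, not from the paper's list. The other 3 measured genes had too few values for this rule.

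The scoring of *hth* was read against the level of each array as a whole. Ranks and medians refer to the genes with a value on that array, and these sets differ. They held 1372, 2650 and 6459 genes on arrays 1, 2 and 3, with 466 genes on all 3. On array 1, 77.6% of all values lay over the upper threshold, and *hth* ranked below the median of that array, at percentile 30.6. On array 2, 48.3% of the values lay over it, and *hth* ranked at percentile 63.6. On array 3 only 6.50% of the values lay over it, and *hth* ranked at percentile 64.8. Its rank on arrays 2 and 3 was thus nearly equal, although it lay above the threshold on array 2 and below a ratio of 1 on array 3. Of the genes with 3 values, 115 (24.7%) shared this course, with arrays 1 and 2 over the upper threshold and array 3 between the thresholds.

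When the median of each array was set to 0, the log2 ratios of *hth* were -0.31, 0.29 and 0.27, and none passed a threshold. Each median covers the genes with a value on that array, which differ between arrays. Relative to the median gene, the *hth* level in hand[173] hearts was 0.808 times that in w[1118] hearts on array 1, 1.23 times on array 2 and 1.20 times on array 3. The mean was 0.09 ± 0.34 (SD, n = 3 arrays). On centred arrays *hth* was not scored, while 11.8% of the 2517 genes were scored as upregulated and 21.9% as downregulated. Of the 244 genes scored as upregulated with the values as deposited, 94 were so again after centring, and *hth* belonged to the other 150. Centred arrays 2 and 3 differed by 0.03 for *hth*, against a median of 0.42 over 1982 genes, whereas array 1 differed from array 3 by 0.58, against a median of 0.78 over 937 genes.

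The deposited log2 values, taken as exponents of 2, were ratios with 3 decimals multiplied by 1 factor per array. Within 0.02 of a thousandth, this held for 99.3%, 98.8% and 97.8% of the values of arrays 1, 2 and 3. The array 3 values of *hth* and *Antp* were among the exceptions, with ratios of 1.78715 and 1.70678 without the factor. Arrays 1 and 2 had nearly equal factors of 0.933 and 0.931, while array 3 had a factor of 0.458. After division by it, *hth* stood at 1.70 on array 1, 1.71 on array 2 and 1.79 on array 3, and all 3 arrays lay over the upper threshold. The mean log2 ratio was then 0.79 ± 0.04 (SD, n = 3 arrays). Only 1 of the 466 genes with 3 values had a smaller SD at this scale, against 77 with the values as deposited and 113 after centring. The median SD of these genes was 0.74 without the factors. This agreement between arrays was noticed after the values had been seen and carries no test. At this scale the array medians were 1.07, 0.48 and 0.57, so that *hth* stayed below the median gene on array 1 and above it on arrays 2 and 3. A total of 30.7% of the 466 genes lay over the upper threshold on all 3 arrays at this scale, and 46.6% of the 2517 genes were scored as upregulated.

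**Figure D1:**
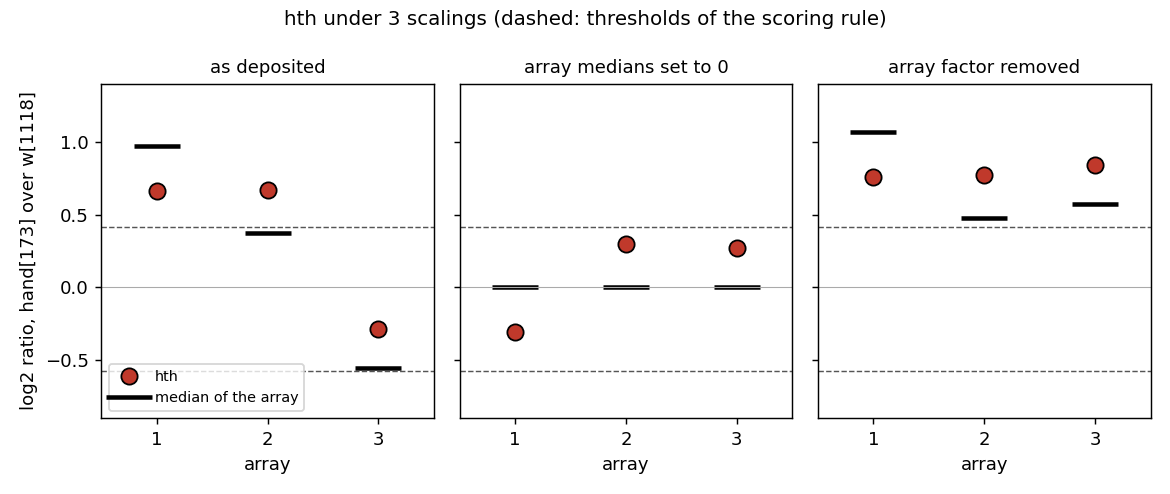
Log2 ratio of *hth* (red points) on arrays 1, 2 and 3 with the values as deposited (left), with the median of each array set to 0 (middle) and with the factor of each array removed (right). Black bars mark the median of all genes of the array, and dashed lines mark the upper and lower thresholds. *hth* lay over the upper threshold on arrays 1 and 2 as deposited, on no array after centring and on all 3 arrays without the factors.

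The log2 ratios of the 2517 genes were also tested against 0 in limma, treating the arrays as if they were independent. This fit covers the spread between arrays of 1 pair of pools, not that between animals. *hth* had a Benjamini-Hochberg adjusted p of 0.996 with the values as deposited (mean log2 ratio 0.35, SE 0.66) and of 0.878 on centred arrays (0.09, SE 0.26). At an adjusted p threshold of 0.05, limma gave 0.318% of the genes as higher and 5.40% as lower in hand[173] with the values as deposited. On centred arrays it gave 0 genes as higher, with 71 at an unadjusted p threshold of 0.05, and 5.88% as lower. A p above the threshold does not show that *hth* was equal in both genotypes.

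*Antp*, *abd-A* and *Abd-B* each had 1 value, on array 3, and could not be scored. *Antp*, which is expressed in the anterior part of the vessel, had a log2 ratio of -0.35, or 0.782 times the w[1118] level in hand[173] hearts. *abd-A*, the selector gene of the posterior heart, had -0.56, or 0.677 times that level. *Abd-B*, the Hox gene of the most posterior segments, had -0.41, or 0.751 times that level. As deposited, all these ratios lay below 1, as did that of *hth* on this array, and none was under the lower threshold of 0.67, where 49.0% of the values of array 3 lay. *abd-A* was close to that threshold.

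Relative to the median of array 3, the log2 values were 0.20 for *Antp*, -0.01 for *abd-A*, 0.14 for *Abd-B* and 0.27 for *hth*. Their percentiles on the array were 60.8, 49.7, 57.6 and 64.8. All 4 genes therefore lay between the quartiles of the array, which were -0.69 and 0.45, and none passed a threshold after centring, where 27.3% of the values of array 3 lay over the upper and 28.1% under the lower threshold. The highest value of the 4 genes, *hth*, and the lowest, *abd-A*, were 0.27 apart. This is less than the median difference of 0.42 between arrays 2 and 3 for the same gene after centring, so that the order *hth*, *Antp*, *Abd-B*, *abd-A* is not resolved for any neighbouring pair. With the factor of array 3 removed, *Antp* had a log2 value of 0.77, *Abd-B* 0.71 and *abd-A* 0.56, against an array median of 0.57. The sign of the log2 ratio of *Antp* and *Abd-B* thus depended on the scaling, negative as deposited and positive after centring or without the factor. That of *abd-A* was negative as deposited, at the array median after centring and positive without the factor.

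**Figure D2:**
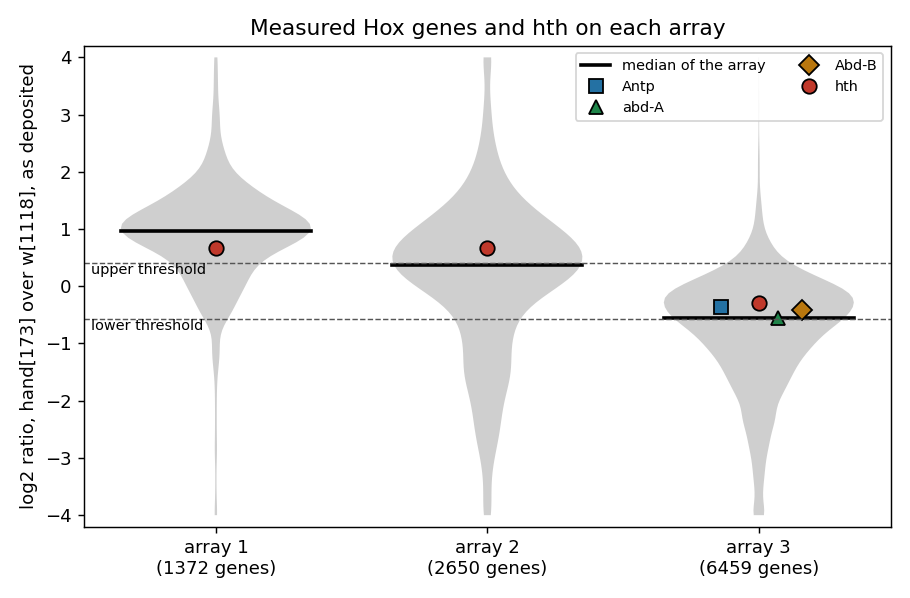
Log2 ratio of hand[173] over w[1118] as deposited for the 4 measured genes (coloured points) on each array. Grey shapes give the distribution of all genes of the array, with values beyond 4 in either direction drawn at 4, black bars give its median, and dashed lines mark the upper and lower thresholds. *hth* lay below the median of array 1 and above the medians of arrays 2 and 3, while *Antp*, *abd-A* and *Abd-B* had a value on array 3 only.

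Other homeobox genes of the Hox complexes gave few further values. Of *pb*, *zen*, *zen2*, *bcd* and *ftz*, 3 had a row. Only *pb* had values on 2 arrays and could be scored, and it was not. Of the 2517 genes, 9.69% were scored as upregulated and 20.5% as downregulated. *pb*, the Hox gene of the mouthparts, had log2 ratios of 0.83 on array 1 and 0.12 on array 3. *zen2*, a relative of the extraembryonic gene *zen*, had 0.60 on array 3, which was over the upper threshold, and *bcd*, which encodes the anterior determinant of the embryo, had -0.53 there. Together with *Antp*, *abd-A* and *Abd-B*, 6 homeobox genes of the complexes had a value on array 3. Of these, 5 lay above the median of the array and *abd-A* lay at it. The range relative to the median was -0.01 to 1.15.

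Hox proteins act together with further transcription factors. Of 12 genes for such partners or for segment identity, 6 had a row and 4 had values on at least 2 arrays. As deposited, 1 of these 4 was scored as upregulated and 1 as downregulated, against 9.69% and 20.5% of the 2517 genes. After centring, 2 were scored as upregulated and 1 as downregulated, against 11.8% and 21.9%. With 4 genes, these counts cannot be told from those shares. *slp2*, which encodes a forkhead factor of the segmentation cascade, was scored as upregulated both as deposited and after centring, with log2 ratios of 0.86, 1.04 and 0.09. Relative to the array medians these were -0.11, 0.66 and 0.64. The call thus rested on arrays 1 and 2 as deposited and on arrays 2 and 3 after centring. The row of an older number of *cnc* (CG13826) was scored as downregulated at both scales. Its log2 ratio was 1.46 on array 1, opposite in sign to the -2.51 and -3.27 of arrays 2 and 3. *cnc* encodes a bZIP factor of the mandibular segment and of the response to oxidative stress. *eve*, a homeobox gene that marks a subset of pericardial cells in the embryo, had 1.05 on array 2 and -0.11 on array 3 and was scored as upregulated after centring only. The TALE homeobox gene *mirr*, of the Iroquois group, had 0.67 on array 1 and -0.52 on array 3 and was not scored. Of the 5 other TALE genes listed, 2 had a row.

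The Polycomb and Trithorax groups keep Hox genes silent or active in the segments where they were set early on. Of 28 such genes, 13 had a row and 5 had values on at least 2 arrays. Of these 5, none was scored as upregulated and 2 as downregulated, against 9.69% and 20.5% of the 2517 genes. *Jarid2*, whose product associates with Polycomb repressive complexes, had log2 ratios of -2.28 on array 2 and -2.51 on array 3, and was scored so after centring as well. *escl*, which encodes a homologue of the Polycomb group protein Esc, had -2.08 and -0.88 on the same arrays, and was not scored after centring. On array 3, 6 of 11 genes of this list lay under 0.67, against 49.0% of all genes there, and the median relative to that of the array was -0.24. These array 3 values leave out *Psc*, with 2.27 on array 2 only, and *kis*, with 1.70 on array 1 only. Relative to the medians of those arrays they had 1.90 and 0.73. *Pc*, *trx* and *ash1* had no row.

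Among 12 heart genes that are patterned along the segments or that Hox genes regulate in the heart, 8 had a row. None of the 2 with at least 2 values was scored, against 9.69% of the 2517 genes scored as upregulated and 20.5% as downregulated. With 2 genes, this count cannot be told from those shares. *Sur*, an ABC transporter of the heart, had log2 ratios of 1.06 on array 2 and -0.94 on array 3, in opposite directions. *Ndae1*, a sodium-driven anion exchanger, had 1.11 on array 1 and 0.16 on array 3. On array 3, 4 of 7 genes of this list lay under 0.67, against 49.0% of all values there. After centring, 1 of 7, *svp*, did so, against 28.1% of all values. The 4 genes under 0.67 as deposited were *svp*, the nuclear receptor of the ostial cells, with -1.28, the T-box gene *Doc2* with -0.93, *Sur*, and the T-box gene *mid* with -0.66. The median of the list on array 3 was -0.10 relative to that of the array. *Ih* had a value on array 2 only, with a log2 ratio of 2.45, or 2.07 relative to the median of array 2. Of 10 genes that Hox proteins are known to regulate in other fly tissues, 8 had a row. *ems*, a homeobox gene downstream of *Abd-B* in the embryonic spiracles, had 0.91 on array 1 and 0.73 on array 2 and was scored as upregulated as deposited, but not after centring. On array 3, 5 of 6 genes of this list lay above the median, and the exception was *salm* with -1.57.

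**Figure D3:**
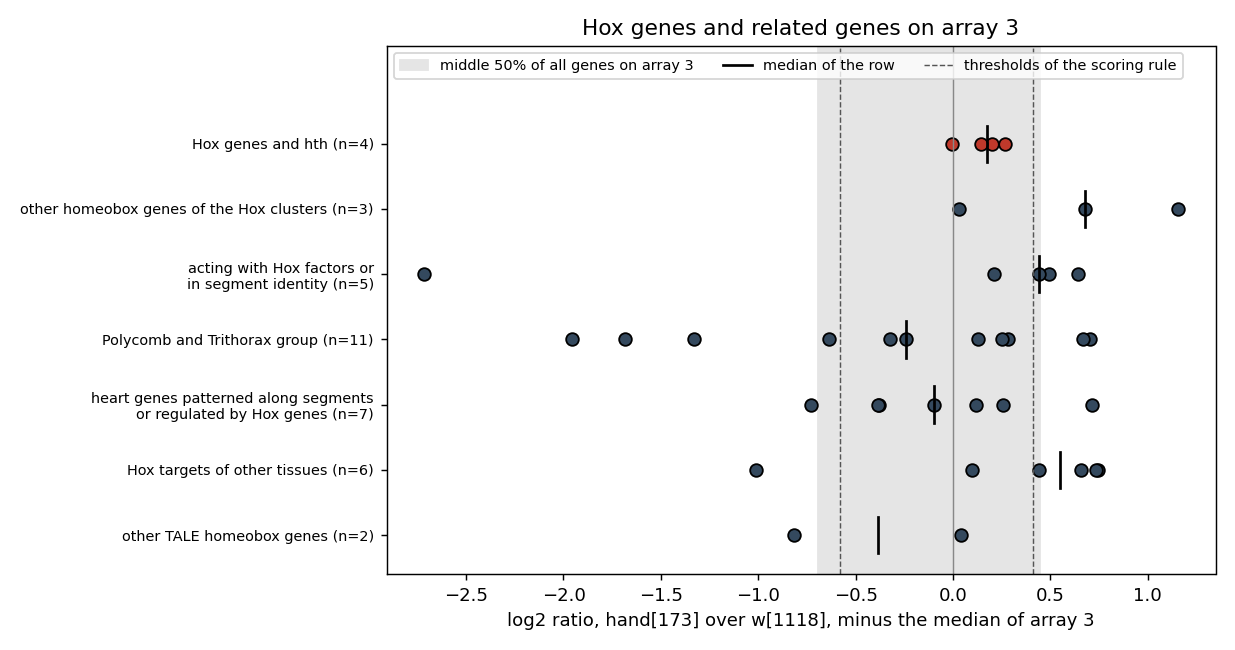
Log2 ratio of hand[173] over w[1118] on array 3, relative to the median of that array, for the 3 measured Hox genes and *hth* (red, top row) and for related genes by list (dark points, 1 per gene). Vertical ticks give the median of each row, the grey band the middle 50% of all genes and dashed lines the upper and lower thresholds. The 4 genes lay between -0.01 and 0.27, inside the grey band, while the Polycomb and Trithorax list ran from -1.96 to 0.70.

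Markers of tissues that can adhere to the heart, and in which Hox genes or *hth* are active too, were read beside these values. Over the lists for neurons, imaginal disc cells, fat body, body wall muscle, pericardial nephrocytes, hemocytes and cardiac cells, 29 of 45 genes had a row. Only 5 rows held values on at least 2 arrays. As deposited, 1 of these 5 was scored as upregulated and 2 as downregulated, against 9.69% and 20.5% of the 2517 genes. *Lsp1alpha*, a larval serum protein gene of the fat body, had log2 ratios of 1.36, -3.30 and -3.61, and *Pxn*, a peroxidasin gene of hemocytes, had 0.30, -1.69 and -2.96, and both were scored as downregulated. *Fbp1*, a further fat body gene, was scored as upregulated with 1.10 on array 1 and 0.91 on array 2, but not after centring. Unlike *Lsp1alpha*, the fat body genes *Lsp1beta*, *Lsp1gamma* and *Lsp2* were not below the median of array 3. They had 0.02, 0.35 and 1.04 relative to it. The neuronal rows ran from -1.10 to 2.11 on array 3 relative to its median (6 rows), those of disc cells from 0.10 to 0.74 (3), of fat body from -3.05 to 1.04 (4) and of body wall muscle from -1.61 to 1.30 (3). The range was -0.65 to 0.80 for nephrocytes (3 rows), -2.41 to -0.22 for hemocytes (2) and -0.73 to 0.40 for cardiac cells (5). These ranges leave out markers with a value on array 2 only. Relative to the median of array 2, the hemocyte gene *srp* had 1.78 and the nephrocyte gene *sns* 1.06. The disc gene *nub* had 1.57 and the muscle gene *Mhc* 1.78 at that scale. A row of the neuronal gene *brp* (CG12932) had -0.15, against 0.23 as deposited. The part of these tissues in the values of *hth*, *Antp*, *abd-A* and *Abd-B* was not tested.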

How the data were processed

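Transcripts of hand[173] and w[1118] larval hearts were compared on 3 spotted 2-colour arrays, all hybridized with 1 pair of RNA pools. The authors scanned and normalized the arrays with GenePix and Acuity and deposited log2 ratios, 1 per gene and array. The normalization method, the spot filter and the reason for empty cells are not given in the sources used here, nor is signal over background. The numerator is not stated with the values. The ratio was read as hand[173] over w[1118], the usual order of these dyes in GenePix, and the study's own lists of scored genes run this way. Base 2 followed from the factor search, which found no more than 6.63% of the values searched whole for natural or decimal logs. For decimal logs the search left out low values and took a limited number per array.

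Genes were found by CG number. RefSeq symbols of the assembly Release 6 plus ISO1 MT named 6984 of the 7498 rows. The build behind the array is not named, so that no coordinates are given. No sequences were used. Scoring followed the rule that the paper states, with no test, since each genotype was 1 pool. Missing values were neither filled in nor counted as passing. All 9 genes are named. Of the other lists, a gene is named if it has values on at least 2 arrays and was scored at either scale, up to 4 per list. Further genes were named for their values or as examples: *pb*, *zen2*, *bcd*, *mirr*, *Psc*, *kis*, *Sur*, *Ndae1*, *svp*, *Doc2*, *mid*, *Ih*, *salm*, *Lsp1beta*, *Lsp1gamma*, *Lsp2*, *srp*, *sns*, *nub*, *Mhc*, *brp* and the genes without a row. The 9 genes and all lists were chosen with earlier results of these data known. Alternatives were centring, centring with scaling, removal of the factor of each array, all 3 arrays, the mean ratio, a log-symmetric threshold, a 2-fold threshold, genes with 3 values, each array left out, and limma on deposited and centred values. The scoring, the factor search and limma were tested on simulated data. Versions were limma 3.58.1 in R 4.3.3, and pandas 2.3.3 with numpy 2.4.6 in Python 3.11.15.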

Additional observations from a re-analysis of the deposited data

How the results depend on the processing

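*hth* remained scored as upregulated without the factor of each array and without array 3. The symmetric threshold and the restriction to genes with 3 values could not change its call. Nor could leaving out array 3, because as deposited *hth* was over the upper threshold on arrays 1 and 2 only. For the same reason it could not be scored with all 3 arrays required, without array 1 or without array 2. It was not scored, so that 0 of the 9 genes were, after centring, after centring with scaling, with all 3 arrays required, with the mean ratio, with a 2-fold threshold, in either limma fit, and without array 1 or without array 2. Its mean log2 ratio ran from 0.04 after centring with scaling to 0.79 without the factors, and was 0.67 without array 3, 0.19 without array 1 and 0.19 without array 2. *hth* was not scored as downregulated under any alternative, and the other 8 genes had no values or 1 value and could not be scored. The number of all genes scored as upregulated, 244, became 1173 without the factors, 5 on all 3 arrays, 674 by the mean ratio, 46 with a 2-fold threshold and 149 among genes with 3 values. The number scored as downregulated, 516, became 10 on all 3 arrays and 211 among genes with 3 values. Leaving out each array in turn, with both remaining arrays past the threshold, 39 to 174 genes were up and 12 to 501 down. At an adjusted p threshold of 0.05, limma gave 8 genes higher and 136 lower in hand[173] as deposited, and 0 higher and 148 lower on centred arrays, where 71 were higher at an unadjusted p threshold of 0.05. No paired analysis was possible because the replicate numbers stand for arrays that each hold both genotypes, so that the pairing is already within each ratio and no further block could be fitted.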

Other observations

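Few chromosomal neighbours of the 9 genes were measured. Of the 54 genes within 3 positions of them in the RefSeq order, 6 had a row and 2 had values on at least 2 arrays. The bxd noncoding RNA (CR31273), which is transcribed from the regulatory region of *Ubx* in the bithorax complex, had a log2 ratio of 0.88 on array 2 and -1.09 on array 3, or 0.50 and -0.53 relative to the medians of the arrays. The arrays thus gave opposite directions, and the row was not scored at either scale. *Ubx* itself had no value. A 7SL RNA (CR32864), the RNA of the signal recognition particle, lies 2 positions from *Scr* in that order and was scored as downregulated at both scales, with a log2 ratio of 1.02 on array 1 and of -1.83 and -2.41 on arrays 2 and 3. The annotation holds a further 7SL RNA gene close by, so that the assignment to this copy is uncertain.

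The genes whose centred values were most like those of *hth* over the 3 arrays, among 465 other genes with 3 values, were *zetaCOP* (CG3948), a subunit of the coatomer, with a root mean square difference of 0.12, the row CG31562 with 0.12 and the row CG331262 with 0.13. The median difference from *hth* was 0.98. All 3 were scored as upregulated with the values as deposited, as *hth* was. This follows largely from choosing them for their likeness to *hth*, and 32.0% of the 466 genes with 3 values were scored so. The 3 arrays were hybridized with 1 pair of pools, and the likeness is a description.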
